A study of Mus musculus with 6 samples.

Results

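The complement component and regulator genes C3, C1ra, C1s1, C2, C4b, Cfb, Serping1, Cd55 and C3ar1 were examined in mRNA-seq libraries of mouse embryonic fibroblasts (MEFs). These 9 genes, of 27179 with counts, were chosen by name, with the near absence of C3 in both CRY-expressing lines already known from the same counts. Their levels and differences are therefore given as a description, without tests. All 3 lines carry the genotype Cry1-/-, Cry2-/-, Per1-/-, Per2-/-, Nr1d1-/-, Nr1d2-/- (CPN-/-). The parental CPN-/- line had no added gene, the CPN-/- CRY1 line expressed exogenous CRY1 and the CPN-/- CRY2 line expressed exogenous CRY2, both from a viral promoter. Both CRY-expressing lines were selected as single colonies with blasticidin, so that each is 1 clone and the exogenous gene cannot be told apart from the clone. The cells received no further treatment, and RNA was prepared before they were fully confluent. Each line had 2 libraries from independent RNA preparations, and the spread between them covers these preparations only. The comparisons describe how the CRY-expressing lines differed from CPN-/- and from each other where PER and NR1D proteins are missing.

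Complement is a cascade of plasma proteins that tag cells for removal or lyse them. In the classical pathway, the proteases C1r and C1s cleave C4 and C2, whose products form an enzyme that splits C3, the central component on which all pathways meet. Factor B, the product of Cfb, forms the corresponding enzyme of the alternative pathway. C1 inhibitor (Serping1) blocks C1r and C1s, CD55 breaks up the C3-splitting enzymes on cell surfaces, and C3ar1 is the receptor for the small fragment released from C3. The liver makes most circulating complement, and fibroblasts are known as a local source of C1r, C1s and C3.

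The libraries held between 25957409 and 36106949 counts. Cry1 had 3973 and 2988 counts in CPN-/-, 5971 and 5846 in CPN-/- CRY1 and 1388 and 1303 in the CPN-/- CRY2 line. Cry2 had 4325 and 3362 counts in CPN-/-, 1832 and 1594 in CPN-/- CRY1 and 9498 and 9468 in the CPN-/- CRY2 line, so that each gene was highest in the line labelled with it, although both also had counts in CPN-/-, which is labelled as lacking them. In CPN-/-, the difference between the replicates (replicate 1 minus replicate 2, on the log2 scale) correlated with transcript length at a Spearman rho of 0.699 (12478 genes, a correlation over genes that do not count as independent). It was -0.206 in CPN-/- CRY1 and 0.290 in the CPN-/- CRY2 line. Of 10 fibroblast markers, Thy1 and Lum had at most 10 counts in every library. The list summed to between 10062 and 16617 CPM (counts relative to the TMM-scaled library size), most of it from Col1a1, Col1a2, Fn1 and Vim. The means of the lines were between 9.46 and 12.4 CPM for Col3a1 and between 0.0992 and 2.21 CPM for Dcn. The macrophage markers summed to between 3.33 and 6.31 CPM, with Tyrobp at 0 in every library, the endothelial markers to between 0.503 and 1.04 CPM, and the hepatocyte markers to between 0.0324 and 0.408 CPM.

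The genes lie on 4 chromosomes of the mm10 genome. C3 is on chromosome 17 (57203967 to 57228136, reverse strand), and its longest coding transcript has 41 exons and 5136 bases. C4b (34728139 to 34743902), Cfb (34856374 to 34862514) and C2 (34862602 to 34882100) lie together on the reverse strand of the same chromosome, in the class III region of the major histocompatibility complex. C1ra (124512621 to 124523440, forward strand) and C1s1 (124530344 to 124542392, reverse strand) are neighbours on chromosome 6, and C3ar1 (122847140 to 122856157, reverse strand) lies on the same chromosome. Serping1 is on chromosome 2 (84765360 to 84775444) and Cd55 on chromosome 1 (130429798 to 130465009), both on the reverse strand.

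RefSeq promoter sequences (GRCm38.p6) were found for 5 of the 9 genes, C3, C1ra, C1s1, C3ar1 and Cd55. The 250 bases before the start are shown for the 3 genes with the highest levels in CPN-/-, 5′ to 3′ on the strand of the gene, with C1s1 at the more upstream of its annotated starts. Capitals mark a match to TTGCNNAA, a form of the C/EBP site, on either strand. C/EBP factors are regulators of acute-phase genes.
C3, chr17:57228137-57228386, reverse strand: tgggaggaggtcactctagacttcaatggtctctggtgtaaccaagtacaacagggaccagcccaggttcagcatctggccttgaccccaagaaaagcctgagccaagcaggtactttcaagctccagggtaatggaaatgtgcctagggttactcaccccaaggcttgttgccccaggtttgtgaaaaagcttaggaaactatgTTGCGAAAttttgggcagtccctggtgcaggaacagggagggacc
C1ra, chr6:124512371-124512620, forward strand: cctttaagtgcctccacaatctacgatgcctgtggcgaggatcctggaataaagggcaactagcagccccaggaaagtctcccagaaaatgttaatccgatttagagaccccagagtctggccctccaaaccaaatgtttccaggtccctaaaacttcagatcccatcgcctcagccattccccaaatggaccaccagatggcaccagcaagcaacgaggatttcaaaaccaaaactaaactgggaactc
C1s1, chr6:124542360-124542609, reverse strand: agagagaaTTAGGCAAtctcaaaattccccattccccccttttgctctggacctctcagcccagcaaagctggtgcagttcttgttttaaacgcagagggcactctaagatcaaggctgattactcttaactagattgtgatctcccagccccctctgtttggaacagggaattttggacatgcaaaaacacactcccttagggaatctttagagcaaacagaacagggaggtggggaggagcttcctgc

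The C3 match began 45 bases before the start and the C1s1 match 242 bases before the start shown. The window of the other annotated start of C1s1 held no match. Of 32851 promoters of this length, 9.56% held these letters. The E-box CACGTG, the sequence through which CLOCK-BMAL1 acts, was in none of the 5 promoters, against 6.02% of all promoters. A form of the NF-kB site matched in C3ar1 and Cd55 and in 4.11% of all promoters. Forms of the interferon-stimulated response element (ISRE) and of the GAS element (TTCNNNGAA), held by 2.98% and 7.02% of all promoters, matched in none of the 5. Every motif was searched on both strands. A match, or the lack of one, is a description of letters in this window, and 5 promoters are too few to compare with these shares. Sequence outside the 250 bases was not searched. The paper places the E-boxes of Pdk1 in its first intron, which such a window does not cover.

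In CPN-/-, the members differed widely in level when counts were scaled to transcript length. C1s1 was highest at 48.2 ± 4.05 CPM per kilobase (SD, n = 2), then C1ra at 32.0 ± 1.23. C3 came next, at 56.7 ± 17.8 CPM before scaling to its length, and then Cfb at 1.54 ± 0.146 CPM per kilobase. C4b followed at 0.397 ± 0.0669 CPM per kilobase. Serping1 (0.0701 ± 0.0237), C2 (0.0674 ± 0.0280), C3ar1 (0.0207 ± 0.00858) and Cd55 (0.00757 ± 0.0107) were lowest, and among these Serping1 did not differ from C2, nor C3ar1 from Cd55, beyond their spread. The order changed in the other lines. In CPN-/- CRY1, C1s1 (12.2 ± 1.33 CPM per kilobase) and C1ra (11.9 ± 1.37) were within their spread of each other, and Cfb, at 1.66 ± 0.0401, came next. The CPN-/- CRY2 line had C1s1 at 39.3 ± 1.17 CPM per kilobase, C1ra at 23.7 ± 1.37 and Cfb at 1.73 ± 0.0674. C3 was below Cfb in both CRY-expressing lines.

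**Figure D1:**
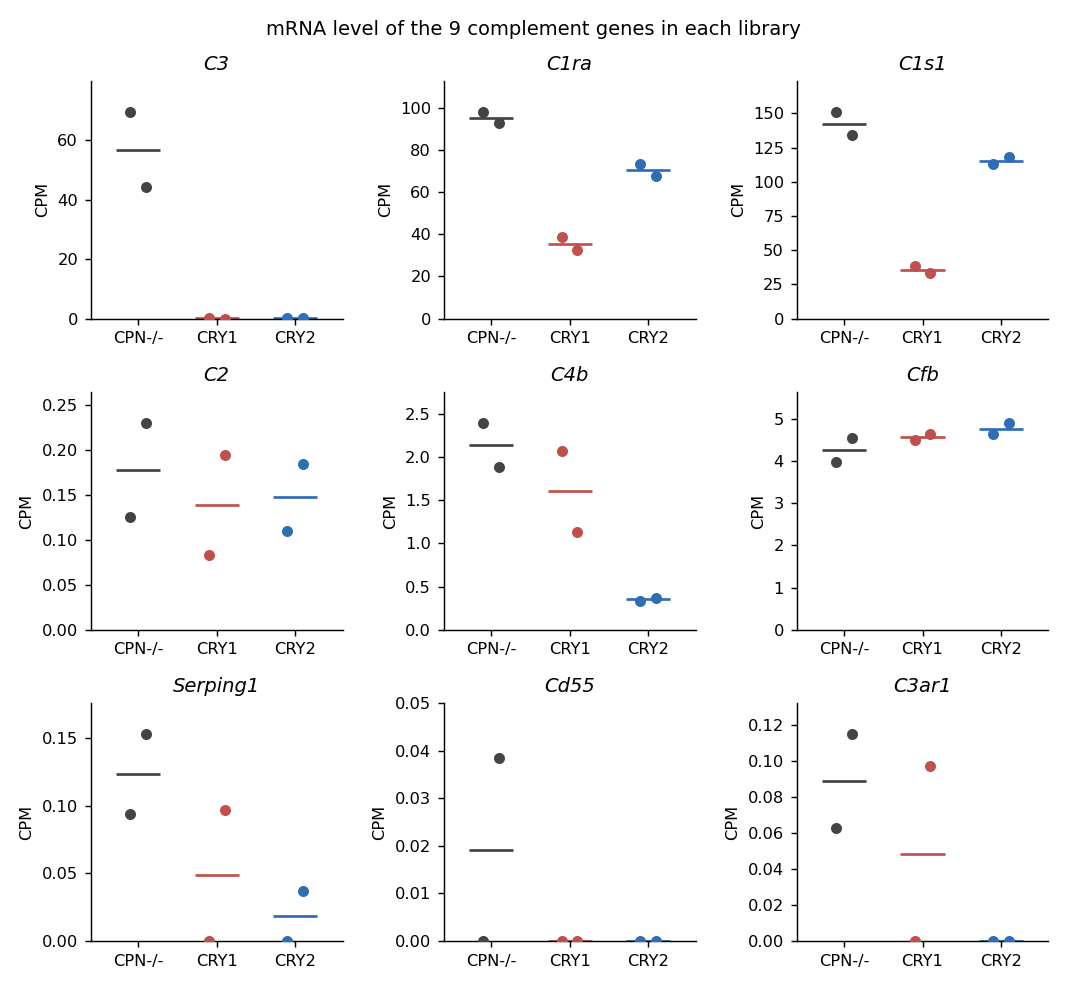
Each panel plots the mRNA level in CPM (vertical axis, from 0, with its own scale) of 1 of the 9 genes in the 2 libraries of CPN-/-, CPN-/- CRY1 (CRY1) and CPN-/- CRY2 (CRY2); points are libraries and bars are means. C3 is near 0 in the 4 CRY-expressing libraries, C1ra and C1s1 are lowest in CPN-/- CRY1, C4b is lowest in CPN-/- CRY2, and the lowest row and C2 rest on few counts.

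C3, the central component, had 2207 and 1150 counts in the CPN-/- libraries, 8 and 1 in CPN-/- CRY1, and 2 and 7 in the CPN-/- CRY2 line. These were 69.4 and 44.1 CPM in CPN-/-, 0.221 and 0.0324 CPM in CPN-/- CRY1, and 0.0735 and 0.259 CPM in the CPN-/- CRY2 line. Both CPN-/- libraries were far above all 4 CRY-expressing libraries, which overlapped between the 2 CRY-expressing lines. In bulk RNA, fewer cells with C3 and less C3 mRNA per cell cannot be told apart. The summed counts, 3357 in CPN-/- and 9 in each CRY-expressing line, gave a level 437-fold lower in CPN-/- CRY1 (95% exact interval 230 to 957) and 354-fold lower in CPN-/- CRY2 (186 to 775). These intervals cover counting error only. Relative to CPN-/-, the fit gave a log2 fold change of -8.68 (standard error, SE, 0.48) in CPN-/- CRY1 and -8.38 (SE 0.48) in CPN-/- CRY2. Single libraries moved these values. Without replicate 1 of CPN-/- CRY1 the value in that line was -10.59 and without replicate 2 it was -7.97, while in CPN-/- CRY2 it was -7.75 without replicate 1 and -9.51 without replicate 2. With each library's trend with transcript length removed, the values were -8.84 and -8.52. DESeq2 gave -8.77 and -8.42, each with an SE of 0.99, so that the size of the SE depended on the method.

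The 5 tested genes nearest to C3 in their centred log2 CPM over the 6 libraries were Cxcl5, Nos2, Saa3, Lcn2 and H19, with root mean square differences from C3 of 0.696, 0.969, 1.04, 1.18 and 1.22. Cxcl5, a neutrophil chemokine, had 360 and 301 counts in CPN-/- and at most 1 in every CRY-expressing library. Nos2, the inducible nitric oxide synthase, had 563 and 336 counts in CPN-/- and between 1 and 3 in the others. Saa3 and Lcn2, acute-phase proteins, had between 156 and 236 counts in CPN-/- and at most 2 elsewhere. The imprinted non-coding RNA H19 had 442 and 397 counts in CPN-/- and between 3 and 8 in the other libraries. These 5 genes were chosen for this likeness, so that their low counts in the CRY-expressing lines follow from the choice. Like C3, they passed the count filter only through CPN-/-. The genes beside C3 on chromosome 17 did not show its pattern. The 11 other tested genes within 250 kb spanned log2 fold changes of -0.85 to 0.27 in CPN-/- CRY1 and of -0.74 to 0.04 in CPN-/- CRY2.

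C1ra and C1s1, the mouse genes for the proteases that start the classical pathway, were lowest in CPN-/- CRY1. C1ra had 97.9 and 92.7 CPM in CPN-/-, 38.5 and 32.7 CPM in CPN-/- CRY1 and 73.5 and 67.7 CPM in the CPN-/- CRY2 line. No library of one line overlapped with those of another, and CPN-/- CRY2 lay between the other lines. The log2 fold changes of C1ra were -1.42 (SE 0.12) in CPN-/- CRY1, -0.43 (SE 0.11) in CPN-/- CRY2 and -0.99 (SE 0.12) for CPN-/- CRY1 against CPN-/- CRY2. C1s1 had 151 and 134 CPM in CPN-/-, 38.7 and 33.1 CPM in CPN-/- CRY1 and 113 and 118 CPM in the CPN-/- CRY2 line, with the same order of lines and no overlap. Its log2 fold changes were -1.98 (SE 0.12), -0.30 (SE 0.12) and -1.69 (SE 0.12) in the same order of comparisons. Over the alternatives tried, the values in CPN-/- CRY1 stayed between -1.54 and -1.31 for C1ra and between -2.10 and -1.87 for C1s1.

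Some fibroblast markers also differed between the lines. In edgeR, 2 of the 8 tested markers fell in CPN-/- CRY1 (Pdgfra and Dcn) and 1 rose (Pdgfrb), while in CPN-/- CRY2 1 rose (Dcn). These markers were named after their values were seen. The call rate over the full tested set, counting both directions, was 24.3% for CPN-/- CRY1 and 6.66% for CPN-/- CRY2. Whether the 8 markers were called more often than these rates was not tested. Pdgfra, a growth factor receptor gene, had 92.7 and 71.9 CPM in CPN-/-, 34.5 and 31.7 CPM in CPN-/- CRY1 and 87.6 and 89.3 CPM in the CPN-/- CRY2 line, and was -1.31 (SE 0.14, edgeR adjusted p = 0.0015) in CPN-/- CRY1 on the log2 scale. Dcn, which encodes the matrix proteoglycan decorin, had 23 and 24 counts, 6 and 1 counts, and 61 and 59 counts in the same order of lines, with -2.92 (edgeR adjusted p = 0.0090) in CPN-/- CRY1 and 1.44 (edgeR adjusted p = 0.039) in the CPN-/- CRY2 line. Pdgfrb was 0.88 (edgeR adjusted p = 0.010) in CPN-/- CRY1. The Dcn calls were lost without replicate 2 of CPN-/- CRY1 (edgeR adjusted p = 0.055) and without either CPN-/- CRY2 library (up to 0.25), and that of Pdgfrb without either CPN-/- CRY1 library (up to 0.085). Their part in the values of C1ra and C1s1 was not tested.

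The proteins C1r and C1s act in a complex with equal copies of each, and the ratio of their mRNAs differed between the lines. The level of C1s1 per length was 1.56 and 1.46 times that of C1ra in the CPN-/- libraries and 1.56 and 1.77 times in the CPN-/- CRY2 libraries. It was 1.02 and 1.03 times in the CPN-/- CRY1 libraries, below all others. C1ra and C1s1 have near copies beside them, C1rb and C1s2, with stretches of 2432 bases at 97.9% and 2644 bases at 96.0% identity, so that reads could be shared. C1rb had between 2 and 14 counts and C1s2 between 3 and 31 counts per library, against at least 1008 for C1ra and 1022 for C1s1. In addition, 576 bases of the C1s1 transcript overlap exons of Gm16567 on the other strand. The strand setting of the counting is not given in the sources used here.

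The other tested genes around C1ra and C1s1 were then compared by position, a choice made after their values were seen and therefore without tests. Of 12 such genes within 250 kb, 11 had lower levels in CPN-/- CRY1 than in CPN-/- and 11 in CPN-/- CRY2, with median log2 fold changes of -0.46 and -0.23. Around C4b, Cfb and C2, 28 and 31 of 36 neighbours were also lower. Over all tested genes, 50.7% and 50.9% had a log2 fold change below 0. Around C3, 6 of 11 neighbours were lower in CPN-/- CRY1, near the share of all tested genes, and 10 of 11 were lower in CPN-/- CRY2. The CPN-/- CRY1 values nearest to those of C1ra and C1s1 were those of C1rl, a C1r-like protease gene (-1.35), of C1s2 (-1.65) and of Clstn3 (-2.07, with a mean of 10.7 counts per library). C1s2 had a mean of 17.7 counts per library and, as a near copy of C1s1, could share reads with it. The other 9 neighbours lay between -0.99 (Grcc10) and 0.38 (Atn1).

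**Figure D2:**
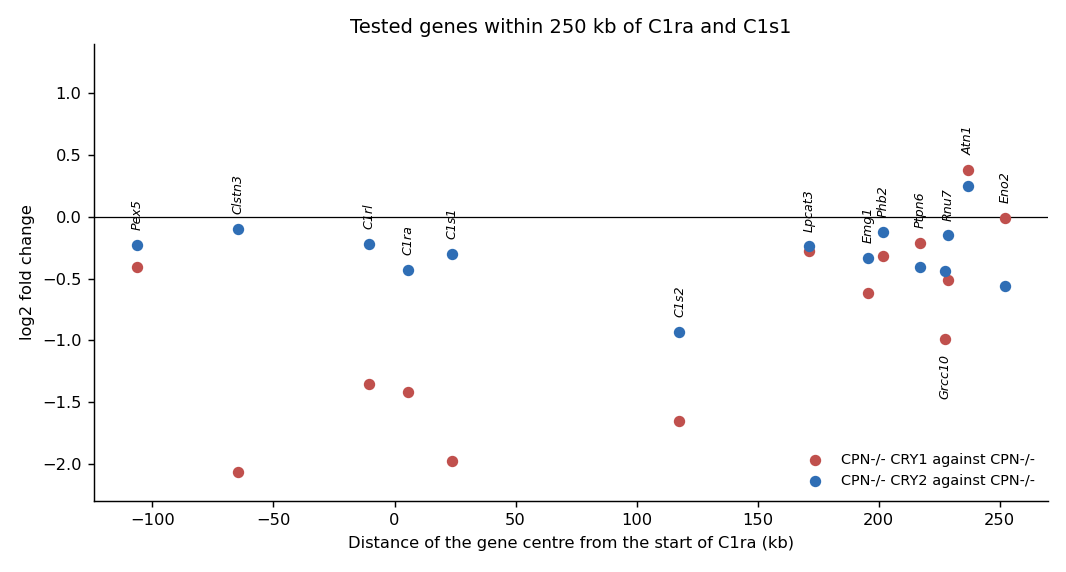
The log2 fold change against CPN-/- (vertical axis) is plotted against the distance of each gene's centre from the start of C1ra in kilobases, for the tested genes within 250 kb of C1ra and C1s1, in CPN-/- CRY1 (red) and CPN-/- CRY2 (blue). In CPN-/- CRY1, C1rl, C1ra, C1s1, C1s2 and Clstn3 lie between -2.07 and -1.35, below the other genes, and the values in CPN-/- CRY2 lie between -0.93 and 0.25. C1s2 and Clstn3 rest on few counts.

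C4b encodes C4, the substrate of C1s, and was lowest in CPN-/- CRY2. It had 76 and 49 counts (2.39 and 1.88 CPM) in CPN-/-, 75 and 35 counts (2.07 and 1.13 CPM) in CPN-/- CRY1, and 9 and 10 counts (0.331 and 0.370 CPM) in CPN-/- CRY2. The CPN-/- CRY2 libraries were below all others, whereas those of CPN-/- and CPN-/- CRY1 overlapped. The log2 fold change was -2.60 (SE 0.41) in CPN-/- CRY2, -0.40 (SE 0.30) in CPN-/- CRY1 and 2.20 (SE 0.42) for CPN-/- CRY1 against CPN-/- CRY2. In CPN-/- CRY1 it was between -0.92 and -0.05 when each of its libraries was left out in turn. C4b thus differed between the CRY-expressing lines in the direction opposite to C1ra and C1s1. C4b and its neighbour C4a, whose product is the sex-limited protein, share a stretch of 5378 bases at 96.0% identity, so that their counts are uncertain. C4a had 64 and 56 counts in CPN-/-, 88 and 69 in CPN-/- CRY1 and 32 and 52 in the CPN-/- CRY2 line, and its differences from CPN-/-, 0.17 (SE 0.24) and -0.42 (SE 0.26) on the log2 scale, did not pass in edgeR (adjusted p = 0.61 and 0.34, Benjamini-Hochberg).

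Cfb, the protease of the alternative pathway, was at like levels in the 3 lines. It had 3.96 and 4.53 CPM in CPN-/-, 4.48 and 4.64 CPM in CPN-/- CRY1 and 4.63 and 4.89 CPM in the CPN-/- CRY2 line. The libraries of CPN-/- and CPN-/- CRY1 overlapped, as did those of the CRY-expressing lines, while both CPN-/- CRY2 libraries were above both CPN-/- libraries. The log2 fold changes were 0.11 (SE 0.15) in CPN-/- CRY1 and 0.17 (SE 0.15) in CPN-/- CRY2. Cfb and C2 share exons with Gm20547, an annotated gene that spans both, over 2246 and 1656 bases. Nelfe, with a mean of 1779 counts per library against 134 for Cfb, ends at 34856372, next to the end of Cfb. The part of Nelfe in the Cfb counts was not tested. The 36 other tested genes within 250 kb of C4b, Cfb and C2 had median log2 fold changes of -0.15 (CPN-/- CRY1) and -0.21 (the CPN-/- CRY2 line).

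The other 4 members were below the count filter. C2, the partner of C4 in the classical C3-splitting enzyme, had 4 and 6 counts in CPN-/-, 3 and 6 in CPN-/- CRY1 and 3 and 5 in the CPN-/- CRY2 line. Serping1, the inhibitor of C1r and C1s, had 3 and 4 counts in CPN-/-, 0 and 3 in CPN-/- CRY1 and 0 and 1 in the CPN-/- CRY2 line. The receptor gene C3ar1 had 2 and 3 counts in CPN-/-, 0 and 3 in CPN-/- CRY1 and 0 in both CPN-/- CRY2 libraries. Cd55 had 1 count in replicate 2 of CPN-/- and 0 in the other 5 libraries. A count of 0 allows up to 3 counts, or between 0.0831 and 0.116 CPM depending on the library, so that differences of these genes were not detectable at this depth. How the overlap with Gm20547 was counted is not known, and its part in the levels of C2 and Cfb, and in their place in the order, was not tested.

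Over the members, 5 of 9 passed the filter, and C3 did so only through CPN-/-. The same counts chose the members, so that no test result is given for them. Both comparisons with CPN-/- use the same CPN-/- libraries.

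**Figure D3:**
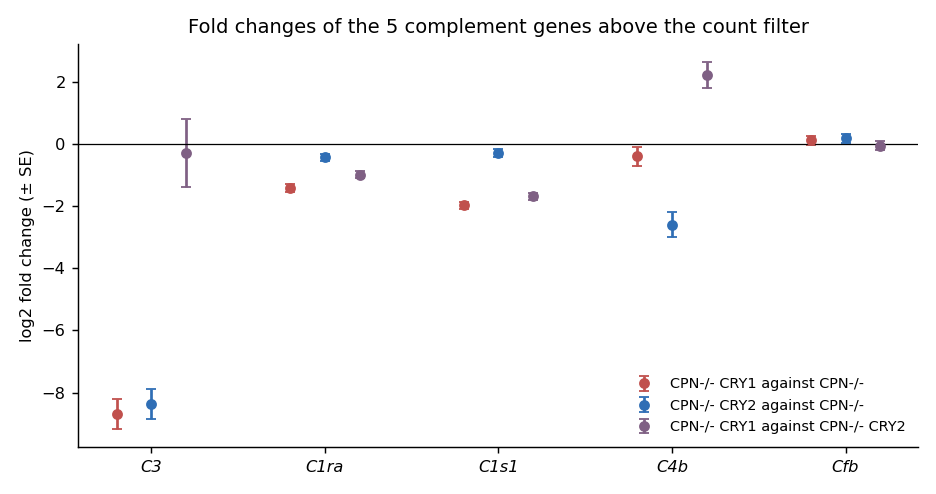
The log2 fold changes (points) with standard errors (bars) of the 5 members above the count filter are shown for CPN-/- CRY1 against CPN-/- (red), CPN-/- CRY2 against CPN-/- (blue) and CPN-/- CRY1 against CPN-/- CRY2 (purple). C3 is at -8.68 and -8.38 against CPN-/-, C1ra and C1s1 are lower mainly in CPN-/- CRY1, C4b is lower mainly in CPN-/- CRY2, and Cfb is near 0 in all 3 comparisons. The SE of C3 against CPN-/- was 0.99 in DESeq2, wider than the bars shown for it.

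The rest of the pathway was taken from a list of 44 other complement genes, of which 16 passed the filter and 11 had 0 counts in every library. C1qa, C1qb and C1qc, the recognition subunits that work with C1r and C1s, had 0 counts throughout, as did Cfd, the protease that activates factor B. Of the terminal components, C8g passed the filter and C6 and C9 were at 0. In CPN-/- CRY1, 6 of the 16 genes were lower and 2 higher than in CPN-/- in edgeR's quasi-likelihood test, where 13.1% of 14069 tested genes were lower, 11.2% higher and 24.3% called in either direction. In CPN-/- CRY2, 1 was lower and 1 higher, where 4.08% of all tested genes were lower, 2.58% higher and 6.66% called. Between the CRY-expressing lines, 4 were lower and 1 higher in CPN-/- CRY1, where 8.57% of all tested genes were lower, 7.72% higher and 16.3% called. The median log2 fold change of the 16 genes was -0.16, 0.06 and -0.31 in the 3 comparisons, and that of all tested genes was between -0.01 and 0.00.

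Among the initiating genes, C1rl had 1080 and 703 counts in CPN-/-, 462 and 345 in CPN-/- CRY1 and 714 and 701 in the CPN-/- CRY2 line. It fell in CPN-/- CRY1, with a log2 fold change of -1.35 (SE 0.14, edgeR adjusted p = 0.0016), and was -0.22 in CPN-/- CRY2 (edgeR adjusted p = 0.35). Both CPN-/- CRY1 libraries had the fewest counts, as for C1ra and C1s1 beside it. Colec10, a collectin of the lectin pathway, had 17 and 9 counts in CPN-/-, 102 and 117 in CPN-/- CRY1 and 29 and 44 in the CPN-/- CRY2 line, without overlap between lines. It rose in CPN-/- CRY1 by 2.87 on the log2 scale (SE 0.33, edgeR adjusted p = 0.0022), and the value of 1.58 in CPN-/- CRY2 did not pass (edgeR adjusted p = 0.061). C1s2 had log2 fold changes of -1.65 (SE 0.52, edgeR adjusted p = 0.059) and -0.93 (SE 0.49, edgeR adjusted p = 0.28). Cfp, which encodes properdin, the stabilizer of the alternative pathway enzyme, rose in CPN-/- CRY1 by 0.60 (SE 0.16, edgeR adjusted p = 0.033), and was named after its values were seen. Its call was lost without any 1 of the CRY-expressing libraries and with only the 4 libraries of the comparison, and adjusted p over the alternatives was between 0.0063 and 0.22.

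Of the 5 tested regulators, 3 were lower in CPN-/- CRY1, among them Clu and Cd59a, where 13.1% of all tested genes were lower. Clu encodes clusterin, an inhibitor of the lytic complex, and had 17.2 and 17.0 CPM in CPN-/-, 4.92 and 4.90 CPM in CPN-/- CRY1 and 7.27 and 8.11 CPM in the CPN-/- CRY2 line. It fell in both CRY-expressing lines, with log2 fold changes of -1.80 (SE 0.12, edgeR adjusted p = 3.5e-04) and -1.15 (SE 0.12, edgeR adjusted p = 0.0028). The latter call was lost without replicate 1 of CPN-/- CRY2 (edgeR adjusted p = 0.057, over a range of 1.5e-09 to 0.057). Cd59a, which blocks the last step of the lytic complex, had 292 and 290 counts in CPN-/-, 185 and 119 in CPN-/- CRY1 and 327 and 265 in the CPN-/- CRY2 line. It fell in CPN-/- CRY1 with a log2 fold change of -1.17 (SE 0.20, edgeR adjusted p = 0.0080), a call lost without replicate 2 of CPN-/- CRY1 (edgeR adjusted p = 0.081, over a range of 1.6e-08 to 0.081).

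A receptor gene and a terminal component gene also fell in CPN-/- CRY1. Itgb2, a subunit of the complement receptors of leukocytes, had 62 and 58 counts in CPN-/-, 32 and 15 in CPN-/- CRY1 and 43 and 38 in the CPN-/- CRY2 line. In CPN-/- CRY1 it fell with a log2 fold change of -1.57 (SE 0.29, edgeR adjusted p = 0.011), and its call was lost without replicate 2 of that line (edgeR adjusted p = 0.077, over a range of 3.9e-05 to 0.077). The terminal component gene C8g had between 12 and 34 counts per library. Its log2 fold change in CPN-/- CRY1 was -1.16 (SE 0.32, edgeR adjusted p = 0.039), and the call was lost in 7 of 14 alternatives, among them those without any 1 of the 4 CRY-expressing libraries, with adjusted p between 0.018 and 0.23 from edgeR and DESeq2.

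**Figure D4:**
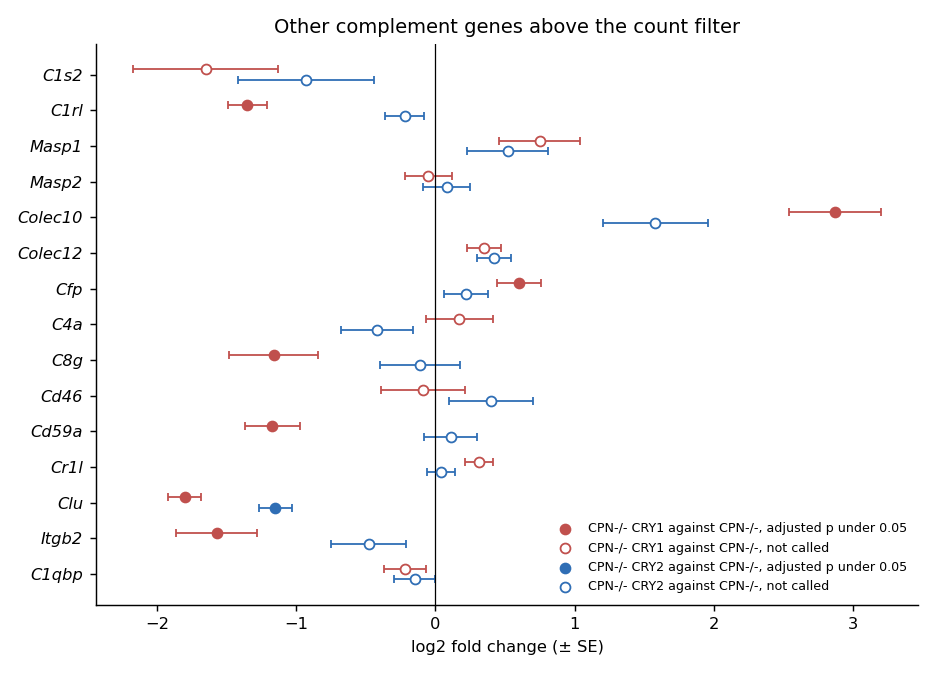
The log2 fold changes against CPN-/- (horizontal axis, with standard errors) of 15 of the 16 other complement genes above the count filter are shown for CPN-/- CRY1 (red) and CPN-/- CRY2 (blue), with filled points for an adjusted p under 0.05. Clu is filled and below 0 in both lines, and Colec10 lies farthest to the right.

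The 9 factors known to act at complement promoters were all tested. In CPN-/- CRY1, Cebpa, Cebpb, Cebpd and Irf1 fell and Rela was among 2 that rose in edgeR's test. Of all tested genes, 13.1% were lower and 11.2% higher in that line. In CPN-/- CRY2, Cebpa, Cebpd and Irf1 fell, where 4.08% of all tested genes were lower and 2.58% higher. Irf1 and Rela were named after their values were seen. The 9 genes had a median log2 fold change of -0.32 in CPN-/- CRY1 and of -0.25 in the CPN-/- CRY2 line. That of all tested genes was -0.01 in both comparisons. Cebpd, an acute-phase C/EBP factor, had 45.8 and 59.3 CPM in CPN-/-, 25.5 and 27.8 CPM in CPN-/- CRY1 and 14.9 and 17.9 CPM in the CPN-/- CRY2 line. The lines did not overlap, and its log2 fold change was -0.98 (SE 0.16, edgeR adjusted p = 0.0070) and -1.68 (SE 0.16, edgeR adjusted p = 0.0022). Cebpa had 18 and 11 counts in CPN-/-, 3 and 1 in CPN-/- CRY1 and 0 in both CPN-/- CRY2 libraries, at least 4.48-fold lower in the latter with 3 counts per library in place of 0. With this bound the median in CPN-/- CRY2 stayed at -0.25. Cebpb had a log2 fold change of -0.79 (SE 0.15, edgeR adjusted p = 0.012) in CPN-/- CRY1 and -0.55 (edgeR adjusted p = 0.087) in CPN-/- CRY2. The falls of Cebpa, Cebpb and Cebpd in CPN-/- CRY1 were not called without replicate 1 or without replicate 2 of that line, with adjusted p between 0.067 and 0.13 from edgeR. Cebpa in CPN-/- CRY2 was not called without any 1 of the 4 CRY-expressing libraries (edgeR adjusted p = 0.054 or 0.11). That of Irf1 was lost in CPN-/- CRY1 without replicate 2 of that line (edgeR adjusted p = 0.092) and in CPN-/- CRY2 without replicate 1 or 2 of that line (edgeR adjusted p = 0.19). The rise of Rela was lost without any 1 of the CRY-expressing libraries, with only the 4 libraries of the comparison, and with a term for the replicate number, where adjusted p was 0.062 from edgeR.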

How the data were processed

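PolyA RNA of 6 libraries, 2 for each of 3 lines, was sequenced from stranded paired-end libraries. The authors mapped the reads to mm10 (STAR) and tallied them with featureCounts, giving the deposited raw counts by NCBI Gene identifier. The annotation, the strand setting and the treatment of multi-mapping reads are not given in the sources used here. Symbols came from RefSeq (GRCm38.p6) for 25275 of 27179 identifiers, and transcript lengths from GENCODE for 12478 of 14069 tested genes. Near copies were sought with BLAST+ 2.17.0 (95% identity over 150 bases).

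Counts were fitted in R 4.3.3 with edgeR 4.0.16 (filterByExpr with a minimum count of 10 and a minimum total of 15, TMM, robust quasi-likelihood, line as the only term, all libraries, two-sided). Benjamini-Hochberg adjustment covered all tested genes, at 0.05. Standard errors were derived from each log2 fold change and its F statistic. Intervals for summed counts are exact binomial (95%) and cover counting error only. Alternatives were other normalizations and filters, DESeq2 1.42.0, a replicate term, 4-library fits, each library left out, a loess length correction (span 0.5) and a threshold of 0.01.

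Members and lists were chosen with earlier results of these data known. Named genes were the members, at most 6 called other complement genes per comparison by size of change, near copies of members, the 4 factors with the largest change and the 5 genes nearest to C3 (log2 CPM with a prior count of 2). Replicates of a line differed by more than counting error (chi-square per degree of freedom 4.94 to 65.7). Some genes of the lists enter the counts but are not reported here.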

Additional observations from a re-analysis of the deposited data

Results flagged for a closer look

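In 4 other complement genes given here the response differed between the CRY-expressing lines, by the direct comparison of CPN-/- CRY1 with CPN-/- CRY2 in edgeR's quasi-likelihood test. Cd59a had -1.28 (edgeR adjusted p = 0.0073), lost without replicate 2 of CPN-/- CRY1 or replicate 1 of CPN-/- CRY2 (edgeR adjusted p = 0.078 and 0.072). C1rl had -1.12 (edgeR adjusted p = 0.0037), lost without replicate 2 of CPN-/- CRY1 (edgeR adjusted p = 0.060). Colec10 had 1.29 (edgeR adjusted p = 0.024) and Clu -0.65 (edgeR adjusted p = 0.017), and both were lost without any 1 of the CRY-expressing libraries, with adjusted p of up to 0.18 and 0.17 from edgeR.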

How the results depend on the processing

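The number of other complement genes called was 8 for CPN-/- CRY1, 2 for CPN-/- CRY2 and 5 between the CRY-expressing lines. With only the 4 libraries of a comparison it was 5 for CPN-/- CRY1 and 11 between the CRY-expressing lines, at an adjusted p under 0.01 it was 4 and 3, and DESeq2's Wald test gave 4 for CPN-/- CRY2. Leaving out 1 library at a time, it ranged from 3 to 13, from 0 to 7 and from 1 to 11. The 0 was edgeR's count without replicate 1 of CPN-/- CRY2, where 3 genes had an unadjusted p under 0.05. The lowest counts came without replicate 2 of CPN-/- CRY1 in the other comparisons, and the highest without replicate 1 of CPN-/-, with the same 11 without its replicate 2 between the CRY-expressing lines. A replicate block gave 10, 3 and 5. The deviations of same-numbered replicates had correlations of -0.0868, 0.155 and -0.0351 between lines, so that the numbers were not taken as pairs.

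Over all genes, 3423, 937 and 2292 were called. The counts were 1798, 473 and 6838 with 4 libraries, 5584, 2319 and 4640 with the length trend removed, 1184, 363 and 854 at 0.01, and 583 for CPN-/- CRY2 with at least 10 counts in every library. They ranged from 663 to 8980, from 199 to 8046 and from 475 to 6897 with a library left out. No named gene that passed the test changed direction in these alternatives. For the members, which carry no test result here, 200 of 203 log2 fold changes moved by less than 1 SD between replicates, and the other 3 were those of C3 with 1 library left out. C2, Serping1, Cd55 and C3ar1 had at most 6 counts in every library, which limits what could be detected for them.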
